A study of Rattus norvegicus with 9 samples.

Results

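The set described here holds 62 genes of the rat hypothalamus whose transcripts were sharply raised 1 d after PEL surgery and back near the Control level 7 d after it. They are 0.178% of the 34784 rows of the count table and were chosen by their own values in CPM, a gene's count per 1000000 counts of its library. A row was kept when its 1 d mean was at least 5 CPM, its log2 difference from Control was at least 1.5 at 1 d and smaller than 0.6 in size at 7 d, and all 3 of its 1 d libraries lay above the 6 others. Log2 differences are between group means of CPM after a pseudocount of 1 was added to each mean, so they understate the change of genes with low counts. Because these values chose the genes, the rise at 1 d and the return at 7 d are given as a description, without a test. The 62 genes were numbered from 1, the gene with the largest log2 difference at 1 d, to 62.

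The supraoptic and paraventricular nuclei were taken from the hypothalamus of S-D rats and their RNA was sequenced in bulk. Each of the 3 groups, Control, PEL surgery 1 d earlier and PEL surgery 7 d earlier, had 3 libraries. The labels do not spell out PEL, which in the published study is an electrical lesion of the pituitary stalk in a rat model of central diabetes insipidus. Neither age, nor what was done to the Control animals, nor whether each library came from 1 animal is given in the sources used here. The magnocellular neurons of these nuclei make vasopressin and oxytocin and send their axons through the pituitary stalk to the posterior pituitary. When the stalk is damaged these axons are cut, the neurons show an injury response and immune and glial cells nearby become activated, while the kidney loses the vasopressin signal to retain water. The early wave of such a response is known from many injuries of the nervous system, and includes genes that are switched on within hours and fall again within days.

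The deposited table lists genes by ID only, 32883 of them Ensembl rat gene IDs and 1901 of another form. No ID was paired with a symbol, as the RefSeq gene table used here gives no Ensembl IDs (0 of its 47357 rows). The genes are therefore described by their values and numbers, with IDs for the first 2, and their roles, promoters and proteins are not analysed here. Markers of the tissue and of other cell types were not checked for the same reason. In bulk tissue fewer cells of a type and less RNA per cell cannot be told apart. Depth was 18948576 to 21012998 counts per Control library, 13338433 to 17294334 per library of 1 d and 17014260 to 18685921 per library of 7 d.

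In all, 12560 rows had a 1 d mean of at least 5 CPM, and 121 of them also reached a log2 difference of 1.5. Of these 121 rows, 40 were still at least 0.6 above Control at 7 d, 6 were at least 0.6 below it and 75 lay within that window. In 13 of the 75 a Control or 7 d library reached into the 1 d values, which left the 62. The 40 rows that stayed high had a median log2 difference at 1 d of 2.30 (1.53 to 3.91), against 1.70 (1.5005 to 4.496) in the set.

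**Figure D1:**
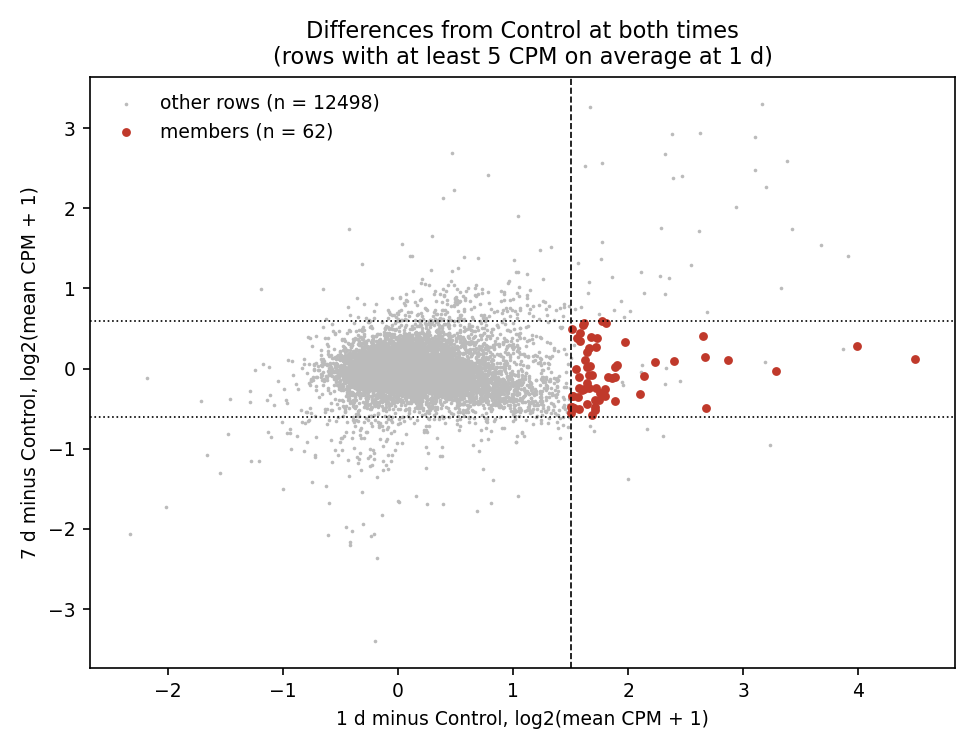
Log2 difference from Control at 1 d (x axis) and at 7 d (y axis) for the 12560 rows with a 1 d mean of at least 5 CPM. Red points are the 62 members, grey points the other 12498 rows; the dashed line marks 1.5 at 1 d and the dotted lines 0.6 above and below Control at 7 d. The members lie to the right of the dashed line between the dotted lines, most of them close to it and 3 beyond 3.

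Most of the 62 genes were of low to moderate abundance. Their 1 d means ran from 5.13 to 6363 CPM with a median of 15.7 CPM, against medians of 3.15 CPM in Control and 3.04 CPM at 7 d. At 1 d, 20 genes were below 10 CPM, 23 were from 10 to below 30 CPM, 13 from 30 to below 100 CPM and 6 at 100 CPM or more. As a ratio of mean CPM to Control the rise was 2.89- to 35.5-fold, with a median of 4.04-fold. It was at least 4-fold in 32 genes and at least 8-fold in 7, namely members 1, 2, 3, 4, 6, 7 and 8. The log2 difference was below 2 in 51 genes, from 2 to below 3 in 8 and 3 or more in 3.

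Summed over the set, the Control libraries held 1897, 1767 and 1987 CPM, the 1 d libraries 8632, 8431 and 8399.9 CPM, and the 7 d libraries 2105, 1738 and 1800.2 CPM. The 1 d sum was 4.51 times that of Control and the 7 d sum 0.999 times. A single gene, member 9, made up 61.4 to 83.0% of this sum in every library. Without it the sums were 322, 509 and 766 CPM in Control, 2386, 2178 and 1809.7 CPM at 1 d and 465, 468 and 418 CPM at 7 d. The 1 d sum of the other 61 genes was then 3.99 times that of Control and the 7 d sum 0.845 times, and their 3 Control libraries lay farther apart than the 3 of 7 d.

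**Figure D2:**
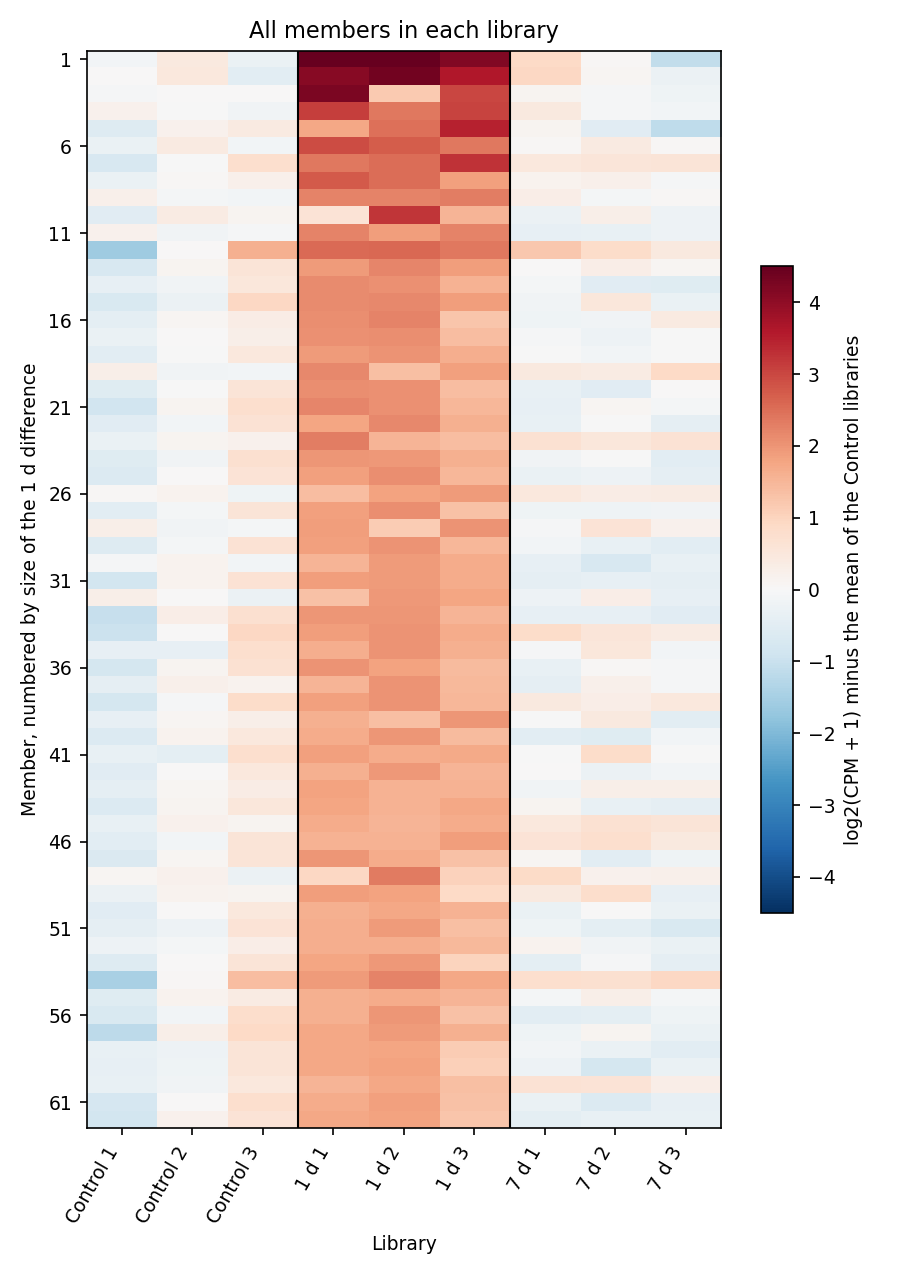
Each of the 62 members (rows, member 1 on top) in each of the 9 libraries (columns), as log2(CPM + 1) minus the mean of the 3 Control libraries; red is higher and blue lower. The 3 columns of 1 d are red throughout, the columns of 7 d are pale, and Control replicate 1 is blue and Control replicate 3 red for many members.

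The first 2 genes stood apart from the rest by the size of their rise. ENSRNOG00000058105, member 1, had 1.39, 2.53 and 1.09 CPM in the Control libraries, 57.0, 74.8 and 46.1 CPM at 1 d and 3.80, 1.70 and 0.221 CPM at 7 d. Its lowest 1 d library was 12.1 times its highest other library, the widest gap in the set, while its Control and 7 d values overlapped. ENSRNOG00000061299, member 2, had 0.844, 1.48 and 0.286 CPM in Control, 29.6, 35.6 and 20.7 CPM at 1 d and 2.41, 0.940 and 0.498 CPM at 7 d. Its lowest 1 d library was 8.59 times its highest other library.

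The log2 differences at 1 d were 4.496 for member 1 and 3.99 for member 2. Both rest on small numbers of reads in Control, 99 for member 1 and 51 for member 2 over the 3 libraries, against 2758 and 1339 at 1 d. At 7 d the reads came to 104 for member 1 and 70 for member 2.

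Both genes also had the same order of libraries within each group. In Control both were highest in replicate 2 and lowest in replicate 3, at 1 d highest in replicate 2 and lowest in replicate 3, and at 7 d highest in replicate 1 and lowest in replicate 3. The correlation of their deviations from the group means over the 9 libraries, on log2(CPM + 1), was 0.91. Member 1 had a median correlation of 0.07 with the 60 members numbered 3 and above, the highest being 0.66. Over all pairs of members the median correlation was 0.50, so correlated deviations were common in the set. These points share libraries and depth, and the values describe these 9 libraries only.

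**Figure D3:**
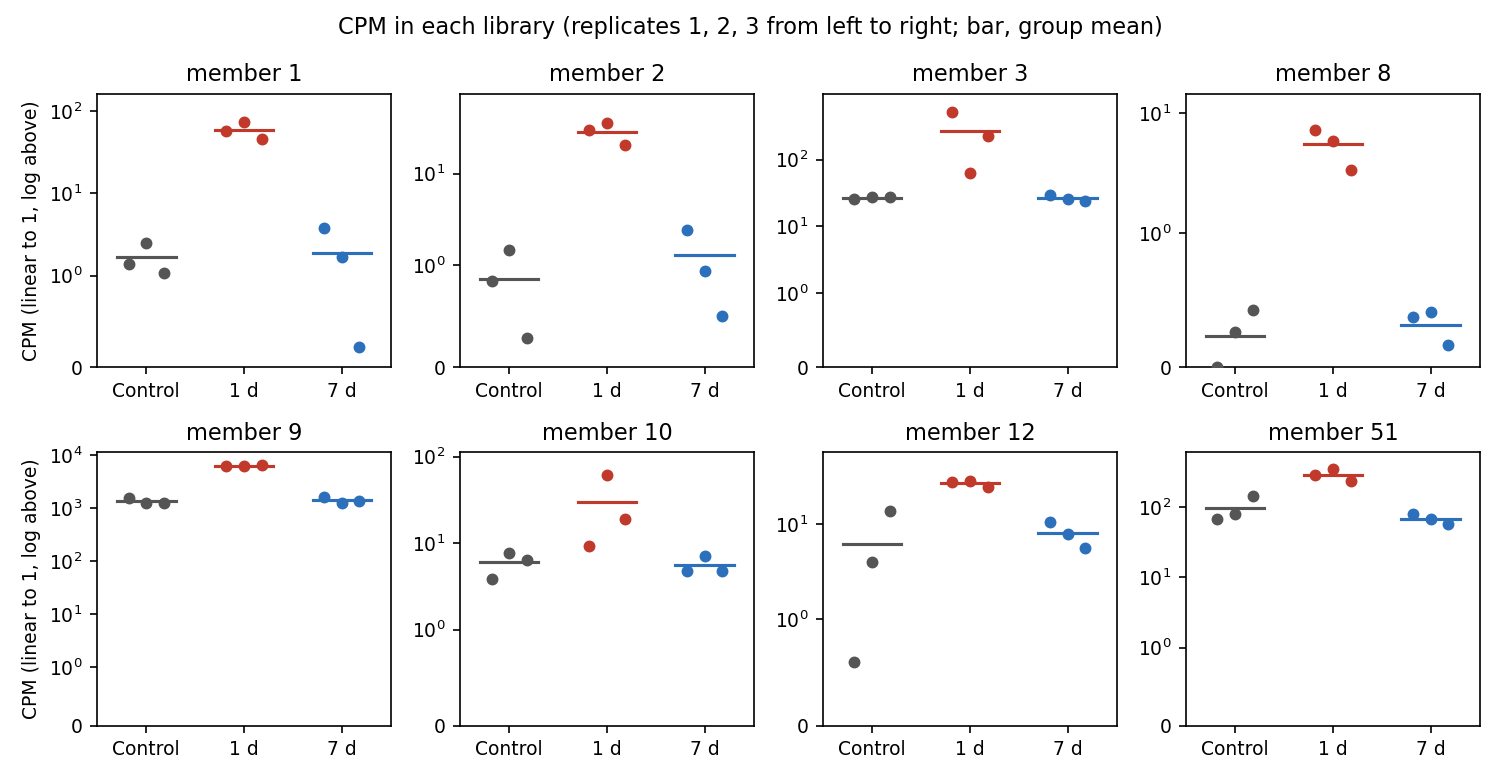
CPM in each library for 8 members, with replicates 1 to 3 of a group from left to right and a bar at the group mean; each y axis is linear up to 1 CPM and logarithmic above it. In members 1, 2, 8 and 9 the lowest 1 d library is 3.81 to 12.1 times the highest other library; members 3 and 10 show widely spread 1 d libraries, and members 12 and 51 Control libraries that differ from each other.

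Members 4, 6 and 8 had the same simple course at lower levels. Member 4 had 1.44, 1.11 and 0.952 CPM in Control, 17.6, 10.1 and 16.7 CPM at 1 d and 1.93, 1.06 and 0.996 CPM at 7 d. Member 6 had 1.89, 3.69 and 2.24 CPM in Control, 26.2, 22.2 and 17.5 CPM at 1 d and 2.62, 3.64 and 2.65 CPM at 7 d. In both, the lowest 1 d library was well above the others, by 5.24 times in member 4 and 4.73 times in member 6.

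Member 8 was close to absent in Control and at 7 d. It had 0, 0.264 and 0.428 CPM in Control, 7.23, 5.88 and 3.37 CPM at 1 d and 0.375, 0.411 and 0.166 CPM at 7 d. These are 14 reads in Control, 261 at 1 d and 17 at 7 d. Its mean rose 23.8-fold, the third largest ratio in the set, although its log2 difference of 2.40 is only the eighth because of the pseudocount.

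The most abundant gene, member 9, was also among the steadiest. Its Control libraries had 1575, 1257 and 1221 CPM, its 1 d libraries 6246, 6252 and 6590.2 CPM and its 7 d libraries 1641, 1270.2 and 1382 CPM. The 1 d libraries differed among themselves by a factor of 1.06, the smallest spread at 1 d in the set. Its mean CPM (± SD, n = 3 each) was 1351 ± 195 in Control, 6363 ± 197 on the first day and 1431 ± 190.1 a week after surgery, which gave log2 differences of 2.23 and 0.08. With 81195 reads in Control and 292620 at 1 d, counting error is negligible for this gene.

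Member 51, second to member 9 by its 1 d mean, had 68.6, 79.2 and 143 CPM in Control, 284, 347 and 237 CPM at 1 d and 79.5, 67.2 and 56.7 CPM at 7 d. Member 50 had 29.1, 41.9 and 58.8 CPM in Control, 127, 140.2 and 126 CPM at 1 d and 33.3, 42.5 and 33.5 CPM at 7 d. Both were 2.99- to 3.03-fold higher at 1 d by their means, and in both Control replicate 3 was the highest of the Control libraries.

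In a few genes 1 library carried much of the 1 d mean. The ratio of the highest to the lowest 1 d library was below 2 in 52 genes, from 2 upwards in 10 and 3 or more in 3, members 3, 5 and 10. Member 3 had 26.1, 27.4 and 27.6 CPM in Control and 29.9, 25.9 and 23.7 CPM at 7 d, a narrow band, but 527, 63.0 and 227 CPM at 1 d. Its log2 difference of 3.28 dropped to 2.38 when replicate 1 of 1 d was left out and became 3.75 when replicate 2 was.

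Member 10 had 3.82, 7.76 and 6.42 CPM in Control, 9.37, 61.5 and 18.8 CPM at 1 d and 4.71, 7.11 and 4.81 CPM at 7 d. Its log2 difference of 2.14 dropped to 1.11 without 1 d replicate 2, below the 1.5 of the rule. Member 5, one of the genes with an ID outside Ensembl's naming, had 2.58, 5.17 and 6.09 CPM in Control, 17.1, 29.0 and 58.4 CPM at 1 d and 4.82, 2.76 and 1.44 CPM at 7 d. The libraries that stood out were different ones: 1 d replicate 1 for member 3, replicate 3 for member 5 and replicate 2 for member 10. Across the set 1 d replicate 2 was the highest of its group in 35 genes, replicate 1 in 18 and replicate 3 in 9, and replicate 3, the library with the fewest counts, was the lowest in 43. It was the lowest of its group in 69.4% of the set, 60.2% of the 437 other rows of at least 5 CPM with a log2 difference of at least 1 at 1 d, and 35.3% of the 12560 rows; the part of depth in this was not tested.

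By 7 d the rise had been reversed, within the bounds the rule set. The 7 d log2 difference ran from -0.58 to 0.59 with a median of -0.10. It was below 0 in 36 genes and above 0 in 26, and smaller than 0.2 in size in 20. Taken as a share of the 1 d rise in mean CPM, the fall by 7 d came to between 76.8 and 117% with a median of 103%, and it lay between 90 and 110% in 38 genes.

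The 7 d and Control libraries overlapped in 55 of the 62 genes, and in 35 all 3 of the 7 d libraries lay within the Control range. The share of all genes within that range was not computed, so nothing is read from the 35. Of the within-group sum of squares of the set, 57.9% lay in Control and 13.8% at 7 d. A wide Control range can hold the 7 d values more easily, and its part in the 35 was not tested. In 5 genes all 7 d libraries were above all Control libraries (8.97% of the 17345 genes tested across the table), and in 2 they were below (7.13%). The 5 were members 19, 23, 26, 45 and 48, and the 2 were members 11 and 30. The largest of these by level, member 45, had 6.75, 10.3 and 9.80 CPM in Control, 30.2, 27.5 and 30.6 CPM at 1 d and 12.7, 14.8 and 13.6 CPM at 7 d. Member 11 had 3.67, 2.69 and 2.95 CPM in Control, 17.98, 13.9 and 18.1 CPM at 1 d and 2.19, 2.23 and 2.49 CPM at 7 d, so that it ended slightly under its starting level.

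The 3 Control libraries were not alike for these genes. Control replicate 3 was the highest of the Control libraries in 46 of the 62 genes and replicate 1 the lowest in 49, and 44 genes, 71.0%, had replicate 1 lowest, replicate 2 between and replicate 3 highest, although the numbers are only names. The rule set no condition on this order, but it did use the Control mean and the highest Control value. Among all 12560 rows with a 1 d mean of at least 5 CPM, which include the set, 33.9% had that order. Among the 437 other raised rows the share was 67.3%, close to the 71.0% of the set, so the order was common among raised rows and nothing here sets the 62 genes apart.

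The size of this difference was often as large as a 2-fold change. The median log2 difference of Control replicate 3 from replicate 1 was 0.98 in the set, 0.78 in the 437 other raised rows and 0.08 in the 12560 rows. It was 1 or more in 29 members, 46.8%, against 3.38% of the 12560 rows. The share in the 437 other raised rows was not computed, so this contrast does not set the members apart from them. Member 12 was the widest, with 0.596, 3.96 and 13.7 CPM in Control, 27.7, 28.3 and 24.2 CPM at 1 d and 10.4, 7.76 and 5.64 CPM at 7 d. Member 54 was next, with 1.99, 7.49 and 20.1 CPM in Control, 29.4, 37.1 and 26.3 CPM at 1 d and 12.6, 12.5 and 14.4 CPM at 7 d. In both, the 7 d values lay inside the range of the Control libraries.

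**Figure D4:**
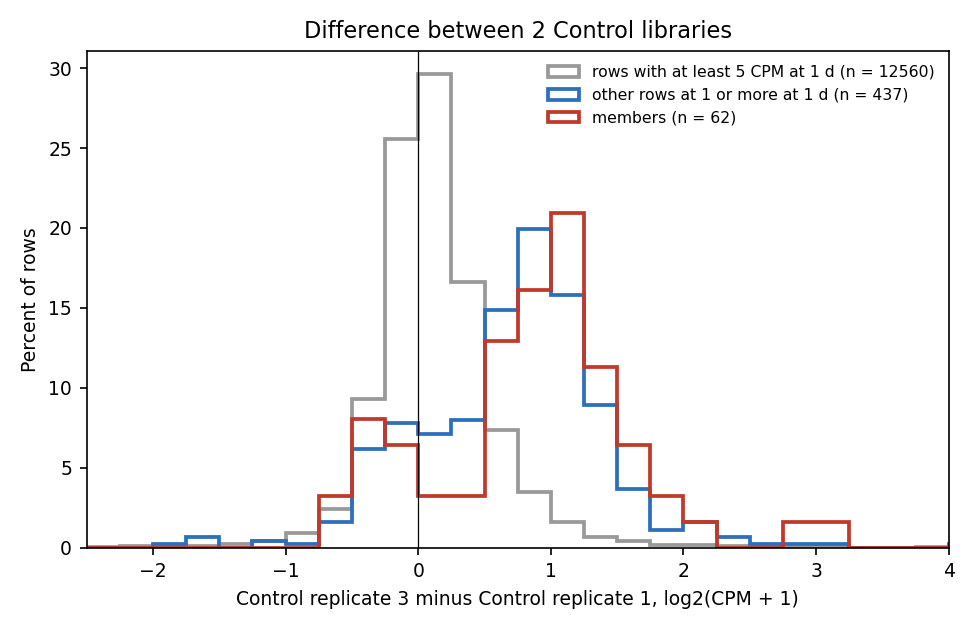
Log2 difference of Control replicate 3 from Control replicate 1 (x axis, 0.25 per step) as the percent of rows (y axis) for the 62 members (red), the 437 other rows with a log2 difference of at least 1 at 1 d (blue) and all 12560 rows with a 1 d mean of at least 5 CPM (grey). The red and blue outlines peak near 1 and the grey outline near 0.

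A cut at a Control difference of 1 lies close to the median of the set, 0.98, so it divides a continuous range and not 2 kinds of gene. Member 5, at 0.985, fell just below it. The 29 genes with a Control difference of 1 or more rose by a median log2 difference of 1.67 at 1 d and stood at a median of -0.26 at 7 d, with 20 of 29 below 0. The other 33 rose by a median of 1.73 and stood at 0.01 at 7 d, with 16 of 33 below 0. Of the 8 genes with the largest rise, 7 belonged to the 33, the exception being member 7 with 0.745, 1.90 and 3.85 CPM in Control, 14.1, 15.6 and 27.0 CPM at 1 d and 2.997, 3.29 and 3.32 CPM at 7 d. This division was made after the values were seen, and both sides share the Control libraries it was drawn from. The median 1 d mean was 26.7 CPM in the 29 and 13.8 CPM in the 33. The pseudocount also shrinks the Control difference of genes with low Control levels, such as members 1, 2, 4 and 8.

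The Control library taken as reference moved the 7 d level of the set across 0. Measured from Control replicate 1 alone, the median log2 difference was 2.33 at 1 d and 0.37 at 7 d, and 7 genes were lower at 7 d. Measured from replicate 2 alone it was 1.83 at 1 d and -0.09 at 7 d, with 39 genes lower at 7 d. Measured from replicate 3 alone it was 1.23 at 1 d and -0.45 at 7 d, with 47 lower. Over the 12560 rows the 7 d medians were 0.05, -0.03 and -0.04. Of the within-group spread of the set, as a sum of squares on log2(CPM + 1), 57.9% lay in Control, 28.3% at 1 d and 13.8% at 7 d, against 47.2%, 30.3% and 22.5% in the 12560 rows.

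Membership depended most on Control replicate 1, without which 36 members were lost. Leaving out 1 d replicate 2 lost 15, and Control replicates 2 and 3 lost 11 each. Replicates 1 and 3 of 1 d lost 10 and 2, and the 7 d libraries 2 to 5. Without Control replicate 1, 30 rows met the rule, 26 of them members, and without Control replicate 3, 144 rows did, 51 of them members. For the other 7 libraries the number was 59 to 82. Of the 36 members lost without Control replicate 1, 34 no longer reached 1.5 at 1 d, because their Control mean was higher. Of the 11 lost without Control replicate 3, 10 were more than 0.6 above Control at 7 d. Whichever library was left out, 20 members still met the rule, among them members 1, 2, 3, 4, 6, 9 and 11 of the first 12.

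**Figure D5:**
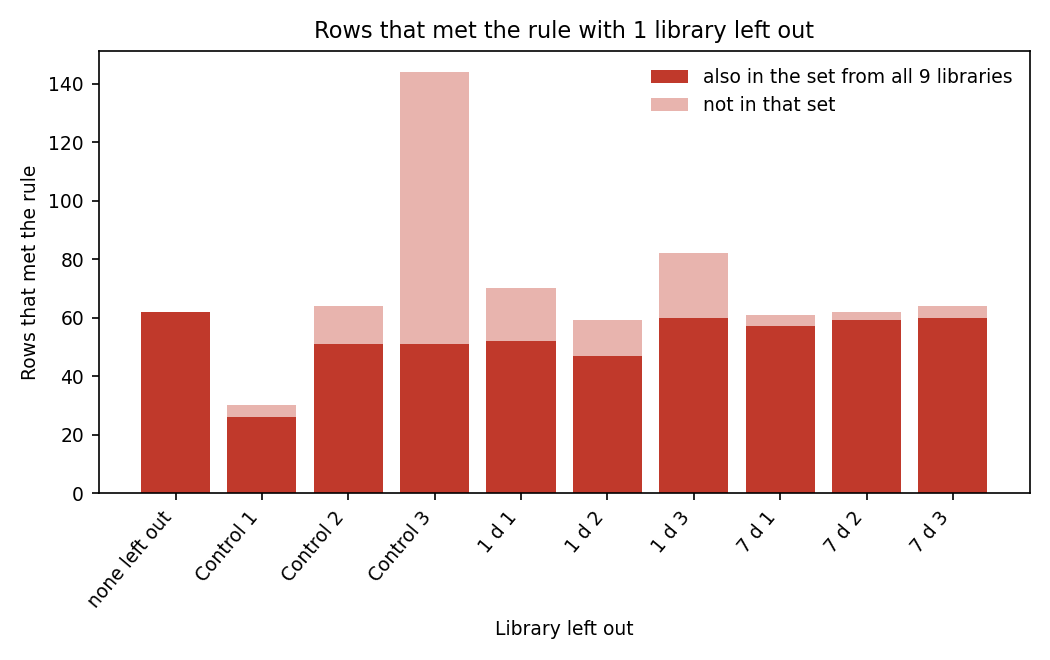
Number of rows that met the rule (y axis) with all 9 libraries and with each library left out in turn (x axis); dark red marks members and light red rows outside the set. The bar without Control replicate 1 reaches 30 and the bar without Control replicate 3 reaches 144, while the others lie between 59 and 82.

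The limits of the rule cut through a continuous range. The 3 members nearest to 1.5 had log2 differences at 1 d of 1.5005, 1.502 and 1.512, and the 3 rows just outside, of the 2761 that failed on this value alone, 1.499, 1.498 and 1.492. At 7 d the outermost members stood at 0.59, -0.58 and 0.57, and the nearest of the 21 rows that failed on this value alone at 0.64, 0.69 and -0.71. The 3 members with the lowest 1 d mean had 5.13, 5.25 and 5.495 CPM, and the nearest of the 12 rows below the limit 4.94, 4.94 and 4.52 CPM. By the ratio of the lowest 1 d to the highest other library the closest members stood at 1.07, 1.12 and 1.21 and the closest of the 13 overlapping rows at 0.983, 0.934 and 0.917.

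Genes outside Ensembl's naming made up 10 of the 62, 16.1%, against 3.52% of the 12560 rows with a 1 d mean of at least 5 CPM and 5.03% of the 437 other raised rows. Among the rows that reached 1.5 at 1 d but missed the 7 d window, they were 2 of the 40 higher ones and 3 of the 6 lower ones. The share of such IDs was thus higher in the set than in the 12560 rows or the 437 other raised rows. It was not higher than in the 6 lower ones, and the reason was not tested. The 10 members rose by a median log2 difference of 1.64 (1.51 to 2.67), and the 52 with Ensembl IDs by 1.71 (1.5005 to 4.496). The most abundant of the 10, member 57, had 14.1, 39.6 and 62.4 CPM in Control, 112, 125 and 102 CPM at 1 d and 28.9, 35.7 and 26.7 CPM at 7 d. What these loci are is not given in the sources used here. Their rows held 1.39 to 1.43% of the counts of a Control library, 1.32 to 1.44% at 1 d and 1.40 to 1.48% at 7 d, so the class as a whole was no larger at 1 d.

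For reference, the same libraries were tested gene by gene across the table with edgeR's quasi-likelihood test. All 62 genes were among the 17345 tested. At a Benjamini-Hochberg adjusted p below 0.05, 58 of the 62 were called higher at 1 d than in Control (11.4% of all genes tested were), 58 lower at 7 d than at 1 d (15.8%) and 0 changed at 7 d against Control (1.02%). In this last comparison 8 members had an unadjusted p below 0.05 by edgeR, as did 2136 of the 17345 genes tested. DESeq2 called 1 member there, and 523 genes across the table. The rule used all 3 comparisons, so nothing is read from these counts. Members 10, 12, 54 and 57 were not called at 1 d, and members 12, 34, 48 and 54 not between the times. All 3 of the 1 d libraries lay above the 6 others in 19.8% of the genes tested.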

How the data were processed

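Per the submitters' processing notes HISAT2 2.0.5, DESeq2 1.16.1 and featureCounts 1.5.0-p3 were used. Genome build, annotation and strand setting: not given in the sources used here. Reads of overlapping, antisense or near-identical genes may thus not have been told apart. The authors deposited 1 table of raw counts per gene, with no normalization and 34784 rows. Groups were taken from the titles (3 libraries each).

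CPM was computed on column totals of 13338433 to 21012998 counts, and the rule was applied to all rows. edgeR's quasi-likelihood test was run on the 17345 genes that filterByExpr kept, with robust glmQLFit, TMM factors of 0.948 to 1.06 and the 3 groups of all 9 libraries in a common model without covariates. P-values were two-sided and Benjamini-Hochberg adjusted, and measure only the spread between these libraries, which may be technical. The test was checked on simulated counts with 200 changed genes. The simulated libraries were independent and had the same spread for every gene. Differences shared by many genes of a library, as among the Control libraries here, were therefore not covered by this check. Replicate libraries differed beyond sampling noise (chi-square over degrees of freedom 6.80 to 38.1), and each was counted once. Such an excess does not show whether they came from different animals. Versions were R 4.3.3, edgeR 4.0.16, DESeq2 1.42.0, Python 3.11.15 and scipy 1.17.1.

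The members and lists were chosen with earlier results of these data known. Genes given by ID were to be the 2 largest log2 differences if IDs had no symbols; other members given by number were chosen after their values were seen, as the largest, the most abundant or the most variable. A total of 23 gene lists and 17 marker lists were not tested, because 0 IDs matched a symbol. Alternatives tried were other scaling factors, DESeq2, no filter, the replicate number as a block, other pseudocounts, no minimum level and leaving out each library.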

Additional observations from a re-analysis of the deposited data

Results flagged for a closer look

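A direct edgeR test of 7 d against 1 d found that 5069 of the 17345 genes tested had changed differently from Control at the 2 times (adjusted p below 0.05), with 2320 higher and 2749 lower at 7 d. The 62 genes were chosen for such a difference and add nothing to this count. No group had enough libraries for a check of single libraries that stand apart.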

How the results depend on the processing

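The set of 62 genes held 51 with TMM-scaled and 52 with DESeq2-scaled library sizes, all of them members, and 79 with a pseudocount of 0.5 (58 members). It held 34 with a pseudocount of 2 (32 members), which lowers every log2 difference of low genes, and 74 with no minimum level. Leaving out 1 library gave 30 to 144 rows, the 30 without Control replicate 1 and the 144 without Control replicate 3. In all, 16 members met the rule under every alternative, 7 of them among the first 12. Single log2 differences at 1 d also moved: that of member 10 was 2.14, and 1.11 without replicate 2 of 1 d, and that of member 8 was 2.40, 3.04 with a pseudocount of 0.5 and 1.75 with one of 2. Their sign was fixed by the rule.

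The counts of genes called by edgeR moved as well, most of all at 7 d against Control. At 1 d against Control, 3540 genes were called, and 1440 to 4595 with 1 library left out: 1577 for Control replicate 2, and 1575 and 1440 for replicates 1 and 2 of 1 d. At 7 d against Control, 177 were called, 523 by DESeq2, and 7 to 739 with 1 library left out: 739, 7 and 98 without Control replicates 1, 2 and 3, 91, 107 and 105 without those of 1 d, and 41, 27 and 113 without those of 7 d. Between 7 d and 1 d, 5069 were called, and 3071 to 6070 with 1 library left out: 3299 for replicate 2 of 1 d and 3071 for replicate 3 of 7 d. The cause was not tested. With library totals as the only scaling 74.3% of the 1 d calls were higher, against 55.8%, and 30.7% of the calls between the times, against 45.8%.

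With the replicate number as a block (replicate block) 2595, 74 and 4319 genes were called in the 3 comparisons. The numbers share only a name: deviations of same-numbered libraries correlated between -0.22 and 0.04 across genes, and in 2 of 18 pairings of a library with another group was its own number the best match.

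Low counts limit the genes at the lower end: 15 of the 62 had fewer than 100 reads over the 3 Control libraries, the lowest 14.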
